A study of Mus musculus with 4 samples.

Results

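The genes described here encode proteins that write, erase or read chemical marks on DNA and histones, or that move nucleosomes. They were chosen by symbol alone from the 14519 genes of the deposited expression table: the HDAC, SIRT, KDM, SETD, SMARC, CHD, DNMT, TET, ARID, BRD, PRMT, EHMT, SUV and CBX families, together with Ezh1, Ezh2, Eed, Suz12, Bmi1, Ring1 and Rnf2, and without Kdm5d. The rule found 115 genes. No expression value entered it, but it was set with earlier results of these data known. RNA was measured in mouse colonic epithelial cells of 2 populations, each in 2 libraries. Reg4+ DCS (deep crypt secretory) cells were sorted by a Reg4-dsRed reporter, and Lgr5+ cells, the stem cells of the crypt base, by an Lgr5-GFP reporter. Libraries were made by CEL-seq, which amplifies RNA linearly and reads the 3′ ends of transcripts, and sorting and library preparation were each done in 2 rounds. The labels give no age or treatment, and they do not say whether libraries of the same replicate number came from 1 round.

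DNA methyltransferases copy and add methyl groups on cytosine, and TET enzymes oxidise them. Polycomb complexes and the H3K9 methyltransferases with their HP1 readers hold genes silent, while acetylation, SWI/SNF remodeling and SET1-type methylation accompany open chromatin. Several of these factors are used at the replication fork, and in the gut epithelium Dnmt1, the Polycomb complexes and histone deacetylases are known for roles in crypt cell division and in the choice between secretory and absorptive fates.

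Levels are given as RPM, the reads of a gene as parts of a fixed library total of 1000000, which is the scale the authors deposited. CEL-seq yields tags from the transcript's end, so RPM is not divided by transcript length. By the steps between RPM values, the Reg4+ DCS columns were each a mean of 2 parts holding 1890960 to 5523304 reads, and the Lgr5+ libraries held 5205723 and 7955340 reads. Sort markers followed the labels: Lgr5 stood at 0.989 and 3.14 RPM in Reg4+ DCS cells and at 46.5 and 48.8 RPM in Lgr5+ cells, while the 5 goblet markers summed to 45276 and 45482 RPM in Reg4+ DCS cells and to 1925 and 1007 RPM in Lgr5+ cells. Markers of other cell types stood higher in the Lgr5+ libraries. The 5 tuft cell markers summed to 2.30 and 1.98 RPM in Reg4+ DCS cells and to 769 and 228 RPM in Lgr5+ cells, and 3 leukocyte markers were listed at 0 in Reg4+ DCS cells and summed to 42.6 and 11.6 RPM in Lgr5+ cells. The tuft genes Gfi1b and Pou2f3 were also listed at 0 in Reg4+ DCS cells, where the 3 enteroendocrine markers found summed to 7.87 and 4.99 RPM, against 29.97 and 13.2 RPM in Lgr5+ cells. The 5 absorptive markers summed to 85.9 and 37.0 RPM in Reg4+ DCS cells and to 738 and 130 RPM in Lgr5+ cells, so that Lgr5+ replicate 1 carried more of all 4 kinds than replicate 2. The 10 dividing-cell markers summed to 451 and 517 RPM in Reg4+ DCS cells and to 1849 and 1939 RPM in Lgr5+ cells, and 9 of them fell. The part of these cells and of cell division in the results below was not tested. In bulk RNA, fewer cells of a type and less RNA per cell cannot be told apart.

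Of the 109 chromatin genes tested, 45 were lower in Reg4+ DCS cells and 0 were higher. Genes were tested with limma on log2(RPM + 1) where at least 2 libraries reached 5 RPM, and called at a Benjamini-Hochberg (BH) adjusted p under 0.05 over all 10183 genes tested. The 45 genes are 41.3% of the chromatin genes tested, against 26.9% of all tested genes called lower, and 0% against 7.18% were called higher. At an unadjusted p under 0.05 the count of higher chromatin genes was also 0. The median log2 fold change, Reg4+ DCS minus Lgr5+, was −0.83 for the chromatin genes and −0.47 for all tested genes, and 82 of the 109 lay below the median of all. A positive fold change was seen for 6 chromatin genes (5.50%), against 26.3% of all tested genes. After the median-of-ratios scaling described below these were 27 chromatin genes (24.8%) and 51% of all tested genes. Summed over the 115 genes, chromatin transcripts came to 3720 and 4731 RPM in Reg4+ DCS cells and to 7502 and 6744 RPM in Lgr5+ cells. Both Reg4+ DCS libraries lay below both Lgr5+ libraries for 88 of the 115, against 58.7% of all genes in the table and 56.2% of all tested genes. The opposite order was seen for 5 chromatin genes, against 15% of all genes and 16.1% of tested ones.

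**Figure D1:**
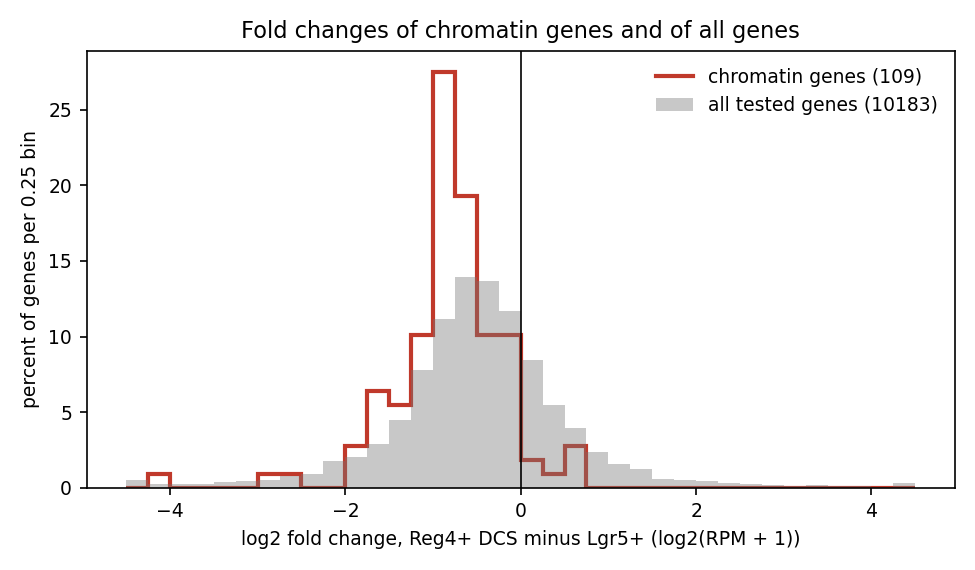
Distribution of log2 fold changes (Reg4+ DCS minus Lgr5+, on log2(RPM + 1)) as percent of genes per bin of 0.25, for the 109 chromatin genes tested (line) and all 10183 tested genes (filled). The chromatin genes are centred on −0.83 and all genes on −0.47, and few chromatin genes lie above 0.

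The calls depended on how libraries were scaled. Median-of-ratios scaling, which sets the typical gene to no change, put the median of all genes at 0.02. It left 15 of 109 chromatin genes lower (13.8%, against 12.7% of all tested genes) and called 5 higher (4.59%, against 15.6%). The 15 were all among the 45. Brd2, Hdac5, Kdm1b and Sirt5 were among those called higher. The chromatin genes' median lay at −0.35 on that scale, so the gap to the median of all genes was −0.37, against −0.36 on RPM. On RPM the share of lower calls was thus above that of all genes, and after scaling it was near it, while the share of higher calls stayed below that of all genes on both scales. edgeR's quasi-likelihood test on the recovered reads called 18 lower and 3 higher, Hdac5 and Kdm1b among them, where 13.4% and 13.7% of all tested genes were called.

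**Figure D2:**
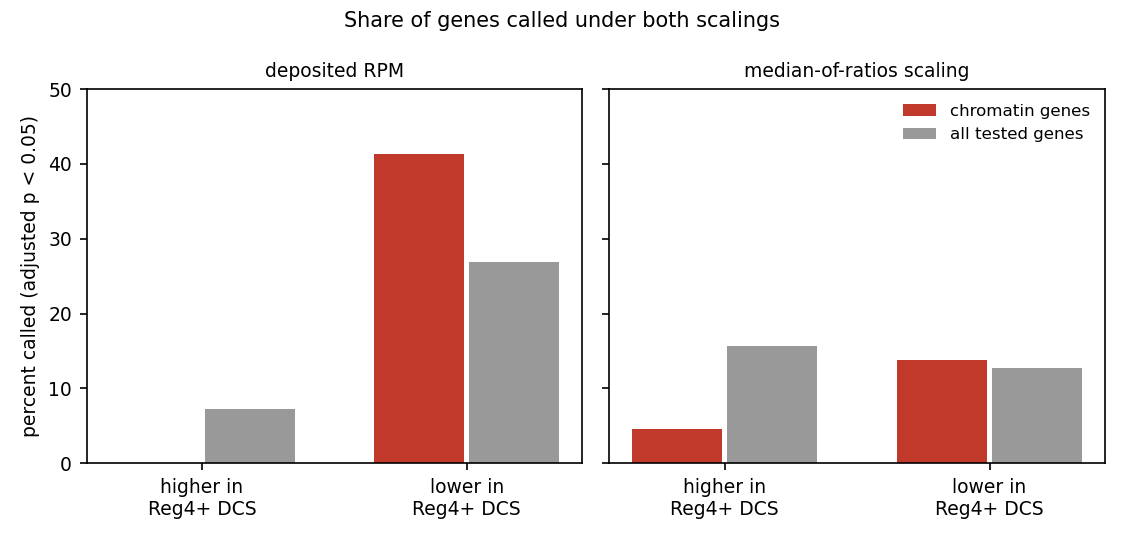
Percent of genes called higher and lower in Reg4+ DCS cells (limma, BH-adjusted p under 0.05) on deposited RPM (left) and after median-of-ratios scaling (right), for 109 chromatin genes and all 10183 tested genes. Lower calls among chromatin genes are 41.3% on RPM and 13.8% after scaling, and higher calls are 0% and 4.59%.

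With 2 libraries a group, most single calls ended in at least 1 fit with a library left out. Without Reg4+ DCS replicate 1 or either Lgr5+ library, the share of lower calls among chromatin genes was below that of all tested genes. Of the 45 lower calls, 9 passed without Reg4+ DCS replicate 1, 30 without Reg4+ DCS replicate 2, 6 without Lgr5+ replicate 1 and 8 without Lgr5+ replicate 2. The calls of Cbx6, Cbx2 and Dnmt3b passed under every alternative in which they were tested. Each was under 5 RPM in both Reg4+ DCS libraries, so it met the level for a test only through the Lgr5+ libraries. A gene that low in Reg4+ DCS cells could be called only as lower. The same holds for Setd4 and Suv39h2, and for Hells, Sap30 and Bcl11a, named below. Median levels were modest: the median chromatin gene stood at 29.2 RPM over the 4 libraries, 36 were under 20 RPM and 13 at 100 RPM or more. No chromatin gene was at 0 in both libraries of a group. Tet1, Setdb2, Kdm8, Smarcd3, Chd5 and Arid3a did not reach the level needed for a test.

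**Figure D3:**
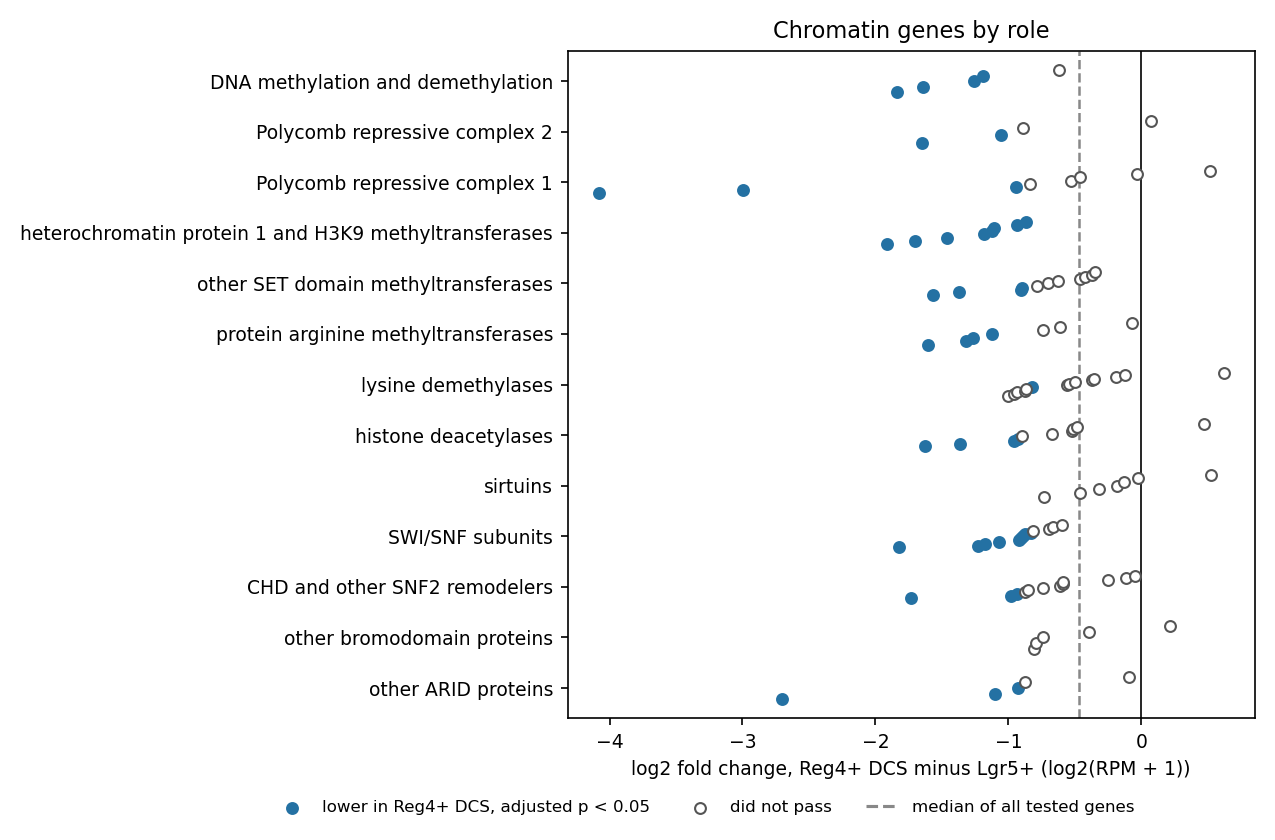
Log2 fold changes (Reg4+ DCS minus Lgr5+, on log2(RPM + 1)) of the 109 tested chromatin genes, 1 point a gene, in 13 role classes. Filled points were called lower by limma; the dashed line is the median of all tested genes, −0.47. Every tested gene of the HP1 and H3K9 class is filled, though Suv39h2 could be called only as lower, and no sirtuin is.

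DNA methyltransferases fell in Reg4+ DCS cells, all 3 of them, where 26.9% of all tested genes were called lower. Dnmt1, the maintenance enzyme that restores methylation after replication, stood at 34.5 and 57.5 RPM in Reg4+ DCS cells and at 123 and 214 RPM in Lgr5+ cells, a 3.66-fold lower mean. Its log2 fold change was −1.84 ± 0.34 (SE; limma, BH-adjusted p = 0.00589), and the libraries of the groups did not overlap. Dnmt3b, a de novo methyltransferase, had 3.21 and 3.25 RPM in Reg4+ DCS cells and 12.3 and 12.1 RPM in Lgr5+ cells, 3.77-fold lower (−1.64 ± 0.31, SE; limma, BH-adjusted p = 0.00636). The libraries of a group lay close, but the parts behind the Reg4+ DCS values differed. The first and second parts held 2.72 and 3.70 RPM of Dnmt3b in replicate 1, and 2.00 and 4.50 RPM in replicate 2. Its highest adjusted p without any 1 library was 0.0413. Dnmt3a, the other de novo enzyme, had 17.3 and 20.98 RPM in Reg4+ DCS cells and 54.9 and 40.4 RPM in Lgr5+ cells, 2.49-fold lower (limma, BH-adjusted p = 0.0116). All 3 also passed after median-of-ratios scaling, where 12.7% of all tested genes were called lower. Dnmt3b, under 5 RPM in both Reg4+ DCS libraries, could be called only as lower. Without Reg4+ DCS replicate 1 or Lgr5+ replicate 2 the limma BH-adjusted p of Dnmt1 was 0.061 and 0.0924. For Dnmt3a it was 0.0722 and 0.0735 without these 2 libraries and 0.134 without Lgr5+ replicate 1.

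The ratio of Dnmt1 to Dnmt3b within a library does not depend on 1 scaling factor per library. It was 10.8 and 17.7 in Reg4+ DCS cells and 9.98 and 17.7 in Lgr5+ cells, so these 2 genes kept overlapping proportions. Dnmt3a to Dnmt3b was 5.39 and 6.46 in Reg4+ DCS cells and 4.47 and 3.34 in Lgr5+ cells, and these ratios of whole columns did not overlap. In Reg4+ DCS replicate 1 the first and second part held 21.9 and 12.7 RPM of Dnmt3a and 2.72 and 3.70 RPM of Dnmt3b. By the second part alone, the ratio of that library lay between the Lgr5+ values. Such ratios are given as values and were not tested; with 2 values against 2 an exact permutation test cannot go below p = 1/3.

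Among the TET genes, Tet2 fell, with 4.93 and 8.10 RPM in Reg4+ DCS cells and 16.9 and 14.7 RPM in Lgr5+ cells (2.43-fold; limma, BH-adjusted p = 0.0286). Tet3 was the most abundant of the 3, at 45.1 and 58.9 RPM in Reg4+ DCS cells and 79.3 and 79.9 RPM in Lgr5+ cells, and it did not pass (limma, BH-adjusted p = 0.0806). Tet1, below the level tested, was at 0.445 and 0.576 RPM in Reg4+ DCS cells and 2.50 and 2.77 RPM in Lgr5+ cells. For each TET gene both Reg4+ DCS libraries lay below both Lgr5+ libraries, an order also seen in 58.7% of all genes and 56.2% of tested ones. The Tet2 call ended after median-of-ratios scaling (limma, BH-adjusted p = 0.095) and without Reg4+ DCS replicate 1, Lgr5+ replicate 1 or Lgr5+ replicate 2 (0.139, 0.159 and 0.126). Relative to Tet3, Tet2 stood at 0.109 and 0.137 in Reg4+ DCS cells and at 0.213 and 0.184 in Lgr5+ cells. A gene on the opposite strand, Dnmt3aos, overlaps exons of Dnmt3a, as Gm42567 does Tet2, and the sources used here do not say whether counting used the strand.

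Polycomb repressive complex 2 methylates H3K27, and it has 2 alternative catalytic subunits. Ezh2, the subunit typical of dividing cells, had 12.2 and 16.0 RPM in Reg4+ DCS cells and 47.4 and 44.7 RPM in Lgr5+ cells, 3.27-fold lower. Its log2 fold change was −1.65 ± 0.27 (SE; limma, BH-adjusted p = 0.00349; 0.00727 after median-of-ratios scaling). Ezh1, the subunit associated with resting cells, had 22.4 and 34.8 RPM in Reg4+ DCS cells and 24.0 and 29.3 RPM in Lgr5+ cells, and its groups overlapped (0.07 ± 0.30, SE; limma, BH-adjusted p = 0.870). The ratio of Ezh1 to Ezh2 was therefore 1.83 and 2.17 in Reg4+ DCS cells and 0.506 and 0.655 in Lgr5+ cells: Ezh1 gave more reads than Ezh2 in both Reg4+ DCS libraries and fewer in both Lgr5+ libraries. As a ratio within a library, this order is the same on any scaling.

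The other PRC2 core subunits lay between them. Suz12, which holds the complex together, had 15.9 and 15.3 RPM in Reg4+ DCS cells and 36.3 and 30.9 RPM in Lgr5+ cells (2.15-fold lower; limma, BH-adjusted p = 0.0194, and 0.124 after median-of-ratios scaling). Eed, the subunit that binds methylated H3K27, had 20.4 and 34.8 RPM in Reg4+ DCS cells and 55.1 and 45.9 RPM in Lgr5+ cells and did not pass (limma, BH-adjusted p = 0.057). The Ezh2 call ended without Lgr5+ replicate 1 or replicate 2 (limma, BH-adjusted p = 0.0719 and 0.0690), and the Suz12 call without any 1 library (0.0582 to 0.163). Gm26625 overlaps exons of Ezh2 on the opposite strand.

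**Figure D4:**
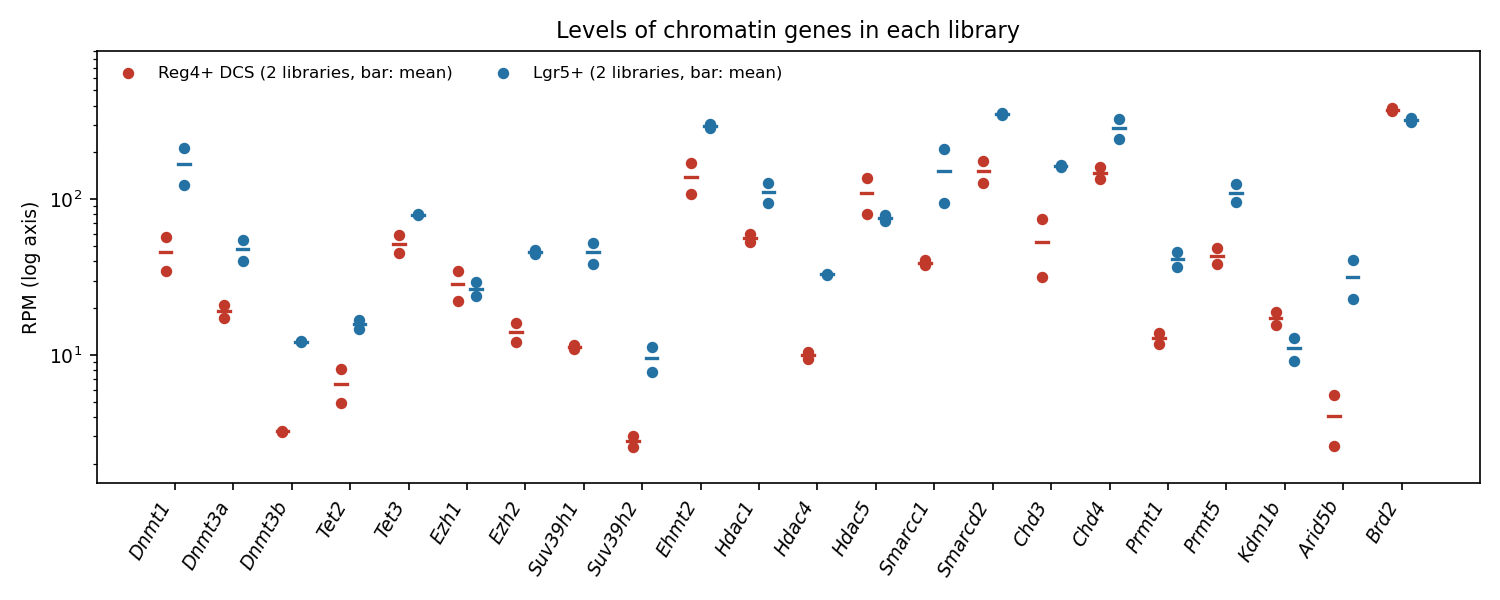
RPM (log axis) of 22 chromatin genes in each library, Reg4+ DCS left of Lgr5+ for each gene; points are libraries and bars group means (n = 2). Dnmt1, Ezh2, Suv39h1, Hdac4 and Chd3 lie apart and lower in Reg4+ DCS cells, Ezh1 overlaps, and Hdac5, Kdm1b and Brd2 lie higher there, though none of these 3 passed on RPM.

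Polycomb repressive complex 1 reads H3K27 methylation through a CBX subunit, and the Polycomb CBX genes Cbx2, Cbx6, Cbx7 and Cbx8 are described together. Cbx6 had 1.09 and 0.999 RPM in Reg4+ DCS cells and 29.0 and 38.7 RPM in Lgr5+ cells, a 32.5-fold lower mean and the largest fold change among the chromatin genes tested (−4.08 ± 0.32, SE; limma, BH-adjusted p = 0.000179). Cbx2 had 1.18 and 1.16 RPM in Reg4+ DCS cells and 18.8 and 14.2 RPM in Lgr5+ cells, 14.1-fold lower (−3.00 ± 0.33, SE; limma, BH-adjusted p = 0.00068). The groups lay far apart for both genes. Cbx7 had 16.6 and 21.2 RPM in Reg4+ DCS cells and 31.9 and 42.7 RPM in Lgr5+ cells (1.98-fold lower; limma, BH-adjusted p = 0.037, and 0.232 after median-of-ratios scaling), and its call ended without any 1 library (0.0577 to 0.247).

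Cbx8 had 20.9 and 32.0 RPM in Reg4+ DCS cells and 28.6 and 24.5 RPM in Lgr5+ cells, and its groups overlapped. Of the summed RPM of these 4 genes, Cbx8 made up 52.5% and 57.9% in Reg4+ DCS cells and 26.4% and 20.4% in Lgr5+ cells. Cbx6 made up 2.73% and 1.80% in Reg4+ DCS cells and 26.8% and 32.2% in Lgr5+ cells, and Cbx2 made up 2.96% and 2.10% in Reg4+ DCS cells and 17.4% and 11.8% in Lgr5+ cells. Cbx7 took 41.8% and 38.2% in Reg4+ DCS cells and 29.4% and 35.6% in Lgr5+ cells, so its shares were closest. No pairwise ratio among the 4 genes overlapped between the groups, and these ratios do not depend on the scaling.

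**Figure D5:**
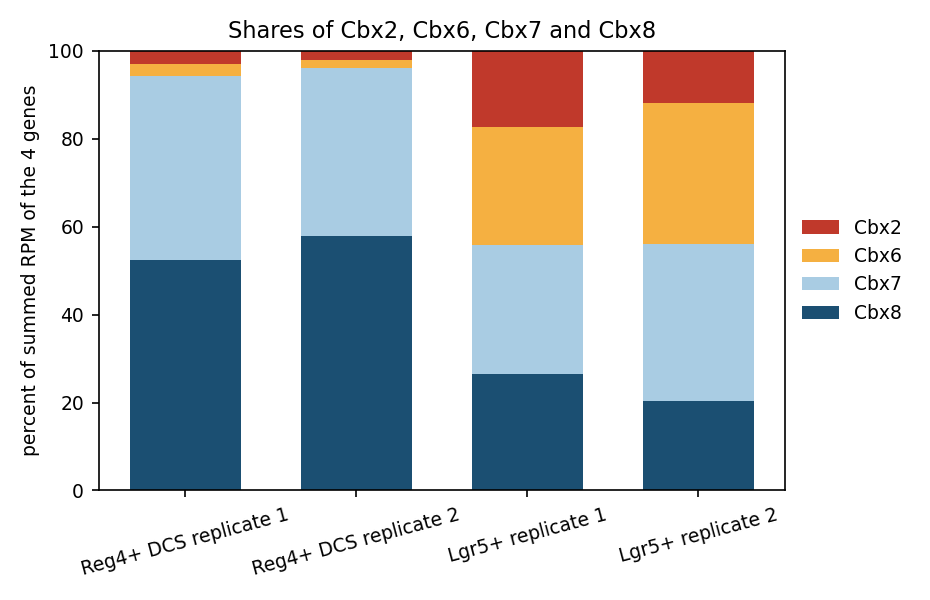
Share of each gene in the summed RPM of Cbx2, Cbx6, Cbx7 and Cbx8, in percent, for each library (Reg4+ DCS left, Lgr5+ right). Cbx8 takes 52.5% and 57.9% in Reg4+ DCS libraries against 26.4% and 20.4% in Lgr5+ libraries, where Cbx2 and Cbx6 take larger shares.

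The low values of Cbx2 and Cbx6 in Reg4+ DCS cells rested on 1 of the 2 parts of each column. In the second part both genes were at 0 in both replicates, a pattern shared by 1120 genes of the table, and a 0 entered into the mean lowers it. In the first part alone Cbx6 stood at 2.17 and 2.00 RPM, which makes it 16.2-fold lower than in Lgr5+ cells, and Cbx2 at 2.35 and 2.33 RPM, 7.05-fold lower. A single read of that part stood for 0.181 RPM in replicate 1 and 0.333 RPM in replicate 2. The same held for Smarcd3, a SWI/SNF subunit below the level tested, with means of 0.0905 and 0.333 RPM in Reg4+ DCS cells and 4.42 and 4.78 RPM in Lgr5+ cells, 21.7-fold lower, or 10.9-fold by the first part. Without Reg4+ DCS replicate 2 the Smarcd3 ratio was 50.8 and without replicate 1 it was 13.8.

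Cbx2 and Cbx8 are neighbours on chromosome 11 (GRCm38, GENCODE M21: chr11:119022962-119031270 on the plus strand and chr11:119036305-119040969 on the minus strand). Cbx6 and Cbx7 are neighbours on chromosome 15 (chr15:79823896-79834688 and chr15:79915807-79971119). The ratio of Cbx2 to its neighbour Cbx8 was 0.0564 and 0.0363 in Reg4+ DCS cells and 0.658 and 0.580 in Lgr5+ cells. Exons of Cbx6 overlap those of Npcd on the same strand, so reads of this pair may have been shared.

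The catalytic and core PRC1 genes were not called. Ring1 and Rnf2, the ubiquitin ligases for H2A, had 10.8 and 18.1 RPM and 16.7 and 22.4 RPM in Reg4+ DCS cells, against 20.2 and 32.8 RPM and 25.7 and 31.4 RPM in Lgr5+ cells. Bmi1, their partner, had 3.76 and 7.97 RPM in Reg4+ DCS cells and 6.72 and 9.43 RPM in Lgr5+ cells, which overlap. Limma's BH-adjusted p for Ring1 was 0.105, for Rnf2 0.179 and for Bmi1 0.391.

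H3K9 methylation and its readers formed the one class in which every tested gene fell, 8 of 8, against 26.9% of all tested genes. Suv39h1, a methyltransferase of constitutive heterochromatin, had 10.9 and 11.6 RPM in Reg4+ DCS cells and 38.6 and 52.5 RPM in Lgr5+ cells, 4.06-fold lower. Its log2 fold change was −1.91 ± 0.28 (SE; limma, BH-adjusted p = 0.00218, and 0.00586 after median-of-ratios scaling), and without Lgr5+ replicate 2 the adjusted p was 0.0637. Its paralog Suv39h2 had 3.03 and 2.56 RPM in Reg4+ DCS cells and 11.3 and 7.79 RPM in Lgr5+ cells (3.42-fold lower; limma, BH-adjusted p = 0.0148). The ratio of Suv39h1 to Suv39h2 was 3.59 and 4.52 in Reg4+ DCS cells and 3.41 and 6.74 in Lgr5+ cells, which overlap.

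The euchromatic H3K9 enzymes were more abundant. Ehmt2, also called G9a, had 108 and 171 RPM in Reg4+ DCS cells and 287 and 304 RPM in Lgr5+ cells (2.11-fold lower; limma, BH-adjusted p = 0.0158). Its partner Ehmt1 had 20.5 and 23.5 RPM in Reg4+ DCS cells and 55.5 and 47.1 RPM in Lgr5+ cells (2.33-fold lower; limma, BH-adjusted p = 0.0106). Setdb1, which silences endogenous retroviruses, had 23.3 and 25.2 RPM in Reg4+ DCS cells and 51.1 and 43.6 RPM in Lgr5+ cells (1.95-fold lower; limma, BH-adjusted p = 0.0245).

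The HP1 genes all fell. Cbx3 (HP1 gamma) was the most abundant, at 60.8 and 88.5 RPM in Reg4+ DCS cells and 136 and 133 RPM in Lgr5+ cells (1.80-fold; limma, BH-adjusted p = 0.032). Cbx5 (HP1 alpha) had 32.5 and 38.8 RPM in Reg4+ DCS cells and 64.0 and 96.5 RPM in Lgr5+ cells (2.25-fold; limma, BH-adjusted p = 0.0178). Cbx1 (HP1 beta) had 5.05 and 2.67 RPM in Reg4+ DCS cells and 24.0 and 8.42 RPM in Lgr5+ cells, so its Lgr5+ libraries disagreed. Its ratio of 4.20 was 2.18 without Lgr5+ replicate 1 and 6.22 without Lgr5+ replicate 2, and limma's BH-adjusted p of 0.0321 was 0.165 without Lgr5+ replicate 1. Cbx1 and Cbx3 have processed pseudogenes, and the sources used here do not say how such reads were assigned.

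Of these 8 calls, only that of Suv39h1 passed after median-of-ratios scaling (12.5%, near the 12.7% of all tested genes). On RPM, 1 of the 8 passed without Reg4+ DCS replicate 1, 5 without Reg4+ DCS replicate 2, 1 without Lgr5+ replicate 1 and 2 without Lgr5+ replicate 2. The class median of −1.15 lay below the −0.47 of all genes.

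Promoters of genes that fell were read for words bound by E2F factors, which drive genes of the dividing cell. RefSeq windows (GRCm38.p6) from 250 bases before to 50 after an annotated start were found for 94 of the 115 genes, 126 windows in all. The words searched were TTTCCCGC, TTTCGCGC, TTTGCCGC and TTTGGCGC on both strands. A word was found in 8 of 50 windows of chromatin genes that fell (16%), in 2 of 70 windows of tested chromatin genes that did not pass (2.86%) and in 2.27% of all RefSeq windows. The genes that fell with a word were Arid1a, Brd7, Cbx3, Dnmt1, Ezh2, Suv39h1, Suv420h2 and Suz12. These sets follow the calls on RPM. Of the genes with a word, Dnmt1, Ezh2 and Suv39h1 also passed after median-of-ratios scaling, and the others did not. The windows are rich in CG, with a median of 29 CG in those that fell and 23.5 in those that did not pass, against 7 in all windows. Among all windows with at least 10 CG, 4.50% held a word. Of companion chromatin genes, named below, 4 of 60 windows of genes that fell (6.67%) and 3 of 104 of those that did not pass (2.88%) held one. Other words were searched in the same windows. The word of the factor NRF1 was found in 16% of windows of chromatin genes that fell, in 12.9% of those that did not pass and in 4.60% of all windows, or 10.3% of all windows with at least 10 CG. The CCAAT word was found in 42%, 34.3%, 37.4% and 35.7% of the same sets. A match is a description of these letters and not a binding site.

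The windows below belong to genes on which the results above turn, 4 with a word and Cbx6, the gene with the largest fold change, without one. Each reads 5′ to 3′ on the strand of the gene, and capitals mark the word or its reverse complement.
Dnmt1, chr9:20952574-20952873, minus strand: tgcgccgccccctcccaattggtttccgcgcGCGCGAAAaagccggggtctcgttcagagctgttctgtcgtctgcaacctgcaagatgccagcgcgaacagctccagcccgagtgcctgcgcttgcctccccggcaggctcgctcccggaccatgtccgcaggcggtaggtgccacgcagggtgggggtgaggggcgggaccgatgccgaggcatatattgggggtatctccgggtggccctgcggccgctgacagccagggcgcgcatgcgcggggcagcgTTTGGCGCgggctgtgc
Ezh2, chr6:47594981-47595280, minus strand: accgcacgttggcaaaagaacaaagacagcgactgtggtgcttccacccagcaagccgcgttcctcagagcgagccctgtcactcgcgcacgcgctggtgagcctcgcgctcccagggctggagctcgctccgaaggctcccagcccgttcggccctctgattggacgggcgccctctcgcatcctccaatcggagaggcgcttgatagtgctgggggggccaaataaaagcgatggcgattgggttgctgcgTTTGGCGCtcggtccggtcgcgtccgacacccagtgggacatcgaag
Suv39h1, chrX:8074312-8074611, minus strand: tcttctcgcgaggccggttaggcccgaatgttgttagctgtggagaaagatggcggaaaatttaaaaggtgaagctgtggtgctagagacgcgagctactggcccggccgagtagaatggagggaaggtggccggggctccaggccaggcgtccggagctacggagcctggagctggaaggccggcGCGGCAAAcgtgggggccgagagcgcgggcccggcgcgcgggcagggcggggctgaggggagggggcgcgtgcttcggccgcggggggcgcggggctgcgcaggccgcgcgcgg
Suz12, chr11:79992856-79993155, plus strand: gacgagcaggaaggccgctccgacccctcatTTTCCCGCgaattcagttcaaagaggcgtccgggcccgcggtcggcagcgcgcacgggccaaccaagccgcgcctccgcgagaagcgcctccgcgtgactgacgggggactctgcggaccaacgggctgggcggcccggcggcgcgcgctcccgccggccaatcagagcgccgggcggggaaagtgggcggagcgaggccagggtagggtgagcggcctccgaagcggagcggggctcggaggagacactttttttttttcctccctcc
Cbx6, chr15:79834284-79834583, minus strand: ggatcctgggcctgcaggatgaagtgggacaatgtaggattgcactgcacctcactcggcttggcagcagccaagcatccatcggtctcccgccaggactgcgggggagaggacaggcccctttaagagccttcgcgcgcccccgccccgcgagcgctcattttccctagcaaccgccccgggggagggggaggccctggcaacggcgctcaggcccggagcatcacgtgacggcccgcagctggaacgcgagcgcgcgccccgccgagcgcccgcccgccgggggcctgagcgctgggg
The Dnmt1 window is 1 of 3 listed for that gene and the Suv39h1 window 1 of 2, and the others held no word. The first base of the word lay at −219 and 33 from the start of Dnmt1, at 3 from that of Ezh2, at −64 from that of Suv39h1 and at −219 from that of Suz12.

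Other SET domain methyltransferases were divided, with 4 of 11 lower (36.4%, against 26.9% of all tested genes) and 7 not passing. Setd1a, a catalytic subunit of the COMPASS complex for H3K4, had 34.7 and 43.9 RPM in Reg4+ DCS cells and 85.7 and 123 RPM in Lgr5+ cells (2.65-fold lower; limma, BH-adjusted p = 0.00746), and it was the one call of this class that passed after median-of-ratios scaling (0.0357). Suv420h2, an H4K20 methyltransferase now called Kmt5c and the most abundant here, had 106 and 184 RPM in Reg4+ DCS cells and 265 and 261 RPM in Lgr5+ cells (1.81-fold lower; limma, BH-adjusted p = 0.0421). Setd2, the H3K36 trimethylase, had 32.6 and 39.1 RPM in Reg4+ DCS cells and 67.8 and 66.9 RPM in Lgr5+ cells (1.88-fold lower; limma, BH-adjusted p = 0.0234). These 3 genes had no overlap between groups.

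The largest fold change of the class was that of Setd4, with 1.89 and 4.68 RPM in Reg4+ DCS cells and 9.60 and 12.6 RPM in Lgr5+ cells (3.37-fold lower; limma, BH-adjusted p = 0.0212). Its ratio was 5.85 without Reg4+ DCS replicate 2. All 4 calls passed without Reg4+ DCS replicate 2, while 0 passed without Reg4+ DCS replicate 1, 1 without Lgr5+ replicate 1 and 0 without Lgr5+ replicate 2. Setd8, the H4K20 monomethylase now called Kmt5a, did not pass, at 75.2 and 132 RPM in Reg4+ DCS cells and 173 and 172 RPM in Lgr5+ cells (limma, BH-adjusted p = 0.0691).

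Protein arginine methyltransferases fell in 4 of 7 cases (57.1%, against 26.9% of all tested genes), with a class median of −1.12. Prmt1, the main asymmetric dimethylase, had 13.9 and 11.9 RPM in Reg4+ DCS cells and 46.1 and 36.8 RPM in Lgr5+ cells (3.22-fold lower; −1.61 ± 0.28, SE; limma, BH-adjusted p = 0.00417). Prmt5, the main symmetric dimethylase and the most abundant of the class, had 38.6 and 48.4 RPM in Reg4+ DCS cells and 125 and 95.9 RPM in Lgr5+ cells (2.54-fold lower; −1.32 ± 0.25, SE; limma, BH-adjusted p = 0.00663). Both lay apart between the groups and passed after median-of-ratios scaling (limma, BH-adjusted p = 0.0155 and 0.0246).

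Prmt3, a cytoplasmic enzyme that methylates a ribosomal protein, had 9.84 and 13.8 RPM in Reg4+ DCS cells and 25.0 and 34.7 RPM in Lgr5+ cells (2.52-fold lower; limma, BH-adjusted p = 0.018). Prmt6, which methylates H3R2, had 6.44 and 6.47 RPM in Reg4+ DCS cells and 15.4 and 15.1 RPM in Lgr5+ cells (2.36-fold lower; limma, BH-adjusted p = 0.0226). After median-of-ratios scaling their limma BH-adjusted p was 0.0713 and 0.113. Of the 4 calls on RPM, 1 passed without Reg4+ DCS replicate 1, 3 without Reg4+ DCS replicate 2, 0 without Lgr5+ replicate 1 and 1 without Lgr5+ replicate 2. Prmt2, Prmt7 and Prmt10 did not pass, and the groups of Prmt2 overlapped. Without Lgr5+ replicate 1 the limma BH-adjusted p of Prmt1 was 0.0829 and that of Prmt5 0.0809. Without Lgr5+ replicate 2 that of Prmt1 was 0.0598, and without Reg4+ DCS replicate 1 that of Prmt5 was 0.0551.

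Of 14 lysine demethylases tested 1 was called lower (7.14%, against 26.9% of all tested genes). Their median of −0.56 lay close to the −0.47 of all genes. The one called was Kdm4a, an H3K9 and H3K36 demethylase, with 19.5 and 23.2 RPM in Reg4+ DCS cells and 40.5 and 36.3 RPM in Lgr5+ cells (1.80-fold lower; limma, BH-adjusted p = 0.0428). It did not pass after median-of-ratios scaling (limma, BH-adjusted p = 0.313) or without any 1 library (0.0647 to 0.224). Kdm6b, the H3K27 demethylase and the most abundant of the class, had 68.1 and 64.3 RPM in Reg4+ DCS cells and 95.1 and 77.3 RPM in Lgr5+ cells (limma, BH-adjusted p = 0.242). Its log2 fold change of −0.37 was 0.13 after median-of-ratios scaling.

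Kdm1b, an H3K4 demethylase related to Kdm1a, had the highest fold change of all chromatin genes tested, with 15.6 and 19.0 RPM in Reg4+ DCS cells and 9.22 and 12.8 RPM in Lgr5+ cells. Its groups did not overlap, but it passed after rescaling and not on RPM (0.62 on RPM; limma, BH-adjusted p = 0.153, and 0.023 after median-of-ratios scaling). Kdm1a, also called LSD1, had the opposite sign on RPM, with 23.5 and 45.9 RPM in Reg4+ DCS cells and 61.7 and 65.9 RPM in Lgr5+ cells and did not pass (limma, BH-adjusted p = 0.0589). The difference between Kdm1a and Kdm1b was not tested. Kdm5a, Kdm5c, Kdm4c and Kdm6a had overlapping groups.

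Histone deacetylases of the zinc-dependent type fell in 4 of 10 cases (40%, against 26.9% of all tested genes). Hdac4, a class IIa enzyme, had 10.5 and 9.48 RPM in Reg4+ DCS cells and 32.8 and 33.1 RPM in Lgr5+ cells, 3.30-fold lower (−1.63 ± 0.27, SE; limma, BH-adjusted p = 0.0037, and 0.0129 after median-of-ratios scaling). Hdac5, of the same class, had 80.3 and 138 RPM in Reg4+ DCS cells and 79.1 and 72.3 RPM in Lgr5+ cells, where the lower Reg4+ DCS library barely exceeded the higher Lgr5+ one. It did not pass on RPM (0.47 ± 0.29, SE; limma, BH-adjusted p = 0.233) and passed as higher after median-of-ratios scaling (0.0177). Hdac7, the third class IIa gene listed, had 9.16 and 18.7 RPM in Reg4+ DCS cells and 23.1 and 20.1 RPM in Lgr5+ cells and did not pass.

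The class I enzymes, which work in the NuRD, Sin3 and NCoR complexes, kept overlapping proportions to each other. Hdac1 had 53.1 and 59.5 RPM in Reg4+ DCS cells and 128 and 94.8 RPM in Lgr5+ cells (1.98-fold lower; limma, BH-adjusted p = 0.0208). Hdac3 had 13.7 and 19.9 RPM in Reg4+ DCS cells and 32.8 and 31.7 RPM in Lgr5+ cells (1.92-fold lower; limma, BH-adjusted p = 0.0406). Hdac2 had 20.4 and 30.6 RPM in Reg4+ DCS cells and 35.0 and 64.1 RPM in Lgr5+ cells and did not pass (limma, BH-adjusted p = 0.0808). The ratio of Hdac1 to Hdac3 was 3.88 and 2.99 in Reg4+ DCS cells and 3.89 and 2.99 in Lgr5+ cells, and those of Hdac1 to Hdac2 overlapped too.

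Hdac6, a cytoplasmic tubulin deacetylase, had 6.86 and 17.8 RPM in Reg4+ DCS cells and 25.4 and 36.1 RPM in Lgr5+ cells (2.49-fold lower; limma, BH-adjusted p = 0.0416). Its ratio was 4.48 without Reg4+ DCS replicate 2, and the parts of Reg4+ DCS replicate 1 differed, at 12.1 and 1.59 RPM. After median-of-ratios scaling the calls of Hdac1, Hdac3 and Hdac6 ended (limma, BH-adjusted p = 0.162, 0.215 and 0.119). Of the 4 calls on RPM, 1 passed without Reg4+ DCS replicate 1, 3 without Reg4+ DCS replicate 2, and 0 without either Lgr5+ library.

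None of the 7 sirtuins, the NAD-dependent deacetylases, passed in either direction on RPM, and their median of −0.19 lay above that of all genes. Sirt7, a nucleolar enzyme and the most abundant, had 37.1 and 58.0 RPM in Reg4+ DCS cells and 66.3 and 42.2 RPM in Lgr5+ cells, which overlap (limma, BH-adjusted p = 0.673). Its log2 fold change of −0.19 was 0.31 after median-of-ratios scaling. Sirt5, the mitochondrial desuccinylase, had 7.37 and 9.52 RPM in Reg4+ DCS cells and 6.53 and 4.65 RPM in Lgr5+ cells, without overlap, and passed after median-of-ratios scaling but not on RPM (limma, BH-adjusted p = 0.0456, and 0.25 on RPM). Sirt1, Sirt3 and Sirt4 overlapped between groups as well.

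SWI/SNF subunits, the parts of the BAF and PBAF remodelers, fell in 9 of 13 cases (69.2%, against 26.9% of all tested genes). All 13 lay below the median of all genes. Smarcc1 (BAF155), a scaffold subunit, had the largest fold change, with 40.9 and 37.6 RPM in Reg4+ DCS cells and 210.0 and 94.8 RPM in Lgr5+ cells (3.88-fold lower; −1.82 ± 0.36, SE; limma, BH-adjusted p = 0.00746). Its Lgr5+ libraries differed, and without Lgr5+ replicate 1 the ratio was 2.41 and the adjusted p 0.0581. Smarcd2 (BAF60B), the most abundant called subunit, had 128 and 177 RPM in Reg4+ DCS cells and 359 and 349 RPM in Lgr5+ cells (2.32-fold lower; −1.23 ± 0.24, SE; limma, BH-adjusted p = 0.00709). Both passed after median-of-ratios scaling (limma, BH-adjusted p = 0.023 and 0.036).

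Arid1a, the subunit that defines the BAF complex, had 59.9 and 102 RPM in Reg4+ DCS cells and 185 and 148 RPM in Lgr5+ cells (2.05-fold lower; limma, BH-adjusted p = 0.0266). Its alternative Arid1b had 29.0 and 31.5 RPM in Reg4+ DCS cells and 49.0 and 43.7 RPM in Lgr5+ cells and did not pass (limma, BH-adjusted p = 0.0896). The ratio of Arid1a to Arid1b was 2.07 and 3.25 in Reg4+ DCS cells and 3.77 and 3.39 in Lgr5+ cells. These ratios lay apart, but the closest pair differed little.

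The ATPases are alternatives to each other in the complex. Smarca2 (BRM) had 26.0 and 36.3 RPM in Reg4+ DCS cells and 56.7 and 59.3 RPM in Lgr5+ cells (1.86-fold lower; limma, BH-adjusted p = 0.033). Smarca4 (BRG1) was the more abundant, at 199 and 109 RPM in Reg4+ DCS cells and 327 and 168 RPM in Lgr5+ cells, and its groups overlapped (limma, BH-adjusted p = 0.206). Their ratio, Smarca2 to Smarca4, was 0.131 and 0.333 in Reg4+ DCS cells and 0.173 and 0.354 in Lgr5+ cells. The ratios of the populations overlap. The high Smarca4 value of Reg4+ DCS replicate 1 came from its first part, at 308 RPM, while its second part held 89.9 RPM, and the parts of Reg4+ DCS replicate 2 held 107.5 and 110.9 RPM. By the second parts alone Smarca4 passed as lower (−1.22; limma, BH-adjusted p = 0.0441), and by the first parts it did not (0.602).

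Smarce1, Smarcb1, Smarcc2, Arid2 and Brd7 also fell, by 1.77-fold to 2.26-fold. After median-of-ratios scaling 2 of the 9 calls of the class passed, which is 15.4% of its tested genes, against 12.7% of all tested genes. On RPM, 0 of the 9 passed without Reg4+ DCS replicate 1, 5 without Reg4+ DCS replicate 2, 0 without Lgr5+ replicate 1 and 1 without Lgr5+ replicate 2. Dhx30 overlaps exons of Smarcc1 on the opposite strand.

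Of the CHD and other SNF2 remodelers 3 of 12 fell, 25% against the 26.9% of all tested genes. Chd3, a NuRD ATPase, had 31.5 and 74.7 RPM in Reg4+ DCS cells and 161 and 167 RPM in Lgr5+ cells (3.08-fold lower; −1.73 ± 0.37, SE; limma, BH-adjusted p = 0.0103, and 0.0215 after median-of-ratios scaling). Its Reg4+ DCS libraries differed more than 2-fold, and the ratio was 5.19 without Reg4+ DCS replicate 2. Chd4, the other main NuRD ATPase, had 136 and 160.2 RPM in Reg4+ DCS cells and 328 and 244 RPM in Lgr5+ cells (1.93-fold lower; limma, BH-adjusted p = 0.021). The third was Smarcad1, which restores silent chromatin after replication, with 10.7 and 13.7 RPM in Reg4+ DCS cells and 20.6 and 30.2 RPM in Lgr5+ cells (limma, BH-adjusted p = 0.0433).

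After median-of-ratios scaling Chd4 and Smarcad1 did not pass (limma, BH-adjusted p = 0.184 and 0.230). Without Lgr5+ replicate 1 or 2 none of the 3 calls passed (limma, BH-adjusted p = 0.110 and 0.123 for Chd3), and without either Reg4+ DCS library 1 did. Chd7, the CHD gene linked in other tissues to enhancers, had 147 and 187 RPM in Reg4+ DCS cells and 229 and 128 RPM in Lgr5+ cells, with overlapping groups. Smarca5, the ISWI ATPase, had 23.5 and 25.1 RPM in Reg4+ DCS cells and 37.1 and 46.0 RPM in Lgr5+ cells and did not pass (limma, BH-adjusted p = 0.0573).

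Of the 5 other bromodomain genes, none passed on RPM. Brd2, a BET reader of acetylated histones and the most abundant chromatin gene, had 384 and 367 RPM in Reg4+ DCS cells and 332 and 315 RPM in Lgr5+ cells. Its groups did not overlap, and it passed as higher after median-of-ratios scaling but not on RPM (0.22 on RPM; limma, BH-adjusted p = 0.449, and 0.0459 after it). Brd3, another BET gene, had the opposite sign on RPM, with 59.2 and 94.9 RPM in Reg4+ DCS cells and 138 and 126 RPM in Lgr5+ cells, and did not pass (limma, BH-adjusted p = 0.053).

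Among the ARID genes outside SWI/SNF, 3 of 5 fell (60%, against 26.9% of all tested genes). Arid5b, a DNA-binding partner of the demethylase Phf2, had 2.60 and 5.53 RPM in Reg4+ DCS cells and 40.9 and 22.8 RPM in Lgr5+ cells, 7.84-fold lower and the third-largest fold change among the chromatin genes (−2.70 ± 0.41, SE; limma, BH-adjusted p = 0.00251, and 0.00291 after median-of-ratios scaling). Its ratio was 12.3 without Reg4+ DCS replicate 2, and without Lgr5+ replicate 1 the adjusted p was 0.0515. Arid4b, a Sin3 complex subunit, had 17.6 and 25.3 RPM in Reg4+ DCS cells and 54.9 and 39.5 RPM in Lgr5+ cells (2.20-fold lower; limma, BH-adjusted p = 0.0251). Arid4a, its paralog, had 21.3 and 25.1 RPM in Reg4+ DCS cells and 60.5 and 30.8 RPM in Lgr5+ cells and did not pass (limma, BH-adjusted p = 0.082). The call of Arid5b was the 1 of the 3 that passed after median-of-ratios scaling; on RPM 1 of the 3 passed without Reg4+ DCS replicate 1, 2 without Reg4+ DCS replicate 2, 0 without Lgr5+ replicate 1 and 1 without Lgr5+ replicate 2.

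A companion list of 186 chromatin genes outside the symbol rule, of acetyltransferases, further methyltransferases, complex partners and histone chaperones, was examined the same way. Of 159 tested, 63 fell (39.6%, against 26.9% of all tested genes) and 1 rose (0.63%, against 7.18%). The median log2 fold change was −0.72. Histone chaperones, which hand histones to new DNA, fell in 12 of 16 cases with a median of −1.55, and 11 of these passed after median-of-ratios scaling, against 12.7% of all tested genes. Nap1l1, the chaperone with the largest fold change among those called, had 32.4 and 42.7 RPM in Reg4+ DCS cells and 181 and 206 RPM in Lgr5+ cells (5.15-fold lower; limma, BH-adjusted p = 0.000512).

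Partners of the genes above were among those that fell. Uhrf1, which brings Dnmt1 to new DNA, had 20.1 and 22.0 RPM in Reg4+ DCS cells and 72.6 and 102 RPM in Lgr5+ cells (4.16-fold lower; limma, BH-adjusted p = 0.00144); it was named for its link to Dnmt1 after its values were seen. Hells, a remodeler needed for DNA methylation, had 3.76 and 4.90 RPM in Reg4+ DCS cells and 19.6 and 25.0 RPM in Lgr5+ cells (5.15-fold lower; limma, BH-adjusted p = 0.00225). Sap30, a Sin3 subunit that binds Hdac1 complexes, had 2.78 and 2.60 RPM in Reg4+ DCS cells and 25.2 and 20.2 RPM in Lgr5+ cells (8.45-fold lower; limma, BH-adjusted p = 0.000843). Each of these genes lay apart between the groups, and the calls of Nap1l1, Uhrf1, Hells and Sap30 passed without any 1 library.

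Bcl11a, a zinc finger protein found with SWI/SNF, had 1.70 and 4.91 RPM in Reg4+ DCS cells and 20.9 and 22.6 RPM in Lgr5+ cells (6.59-fold lower; limma, BH-adjusted p = 0.00346). Its ratio was 12.8 without Reg4+ DCS replicate 2, and its adjusted p was 0.0544 and 0.0652 without Lgr5+ replicates 1 and 2. Whsc1 (Nsd2), an H3K36 methyltransferase, had 14.0 and 23.2 RPM in Reg4+ DCS cells and 85.3 and 92.8 RPM in Lgr5+ cells (4.78-fold lower; limma, BH-adjusted p = 0.00132, and 0.0509 without Lgr5+ replicate 2). Among acetyltransferase genes 4 of 23 fell (17.4%, below the 26.9% of all tested genes), led by Trrap, the scaffold of the Tip60 and SAGA complexes (3.11-fold lower; limma, BH-adjusted p = 0.00601). Among Polycomb partners 8 of 22 fell (36.4%), led by Pcgf6 (2.75-fold lower; limma, BH-adjusted p = 0.0163). Without Lgr5+ replicates 1 and 2 the limma BH-adjusted p of Trrap was 0.0986 and 0.0807, and that of Pcgf6 0.0997 and 0.140; without Reg4+ DCS replicate 1 that of Pcgf6 was 0.0897.

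Gadd45g, a stress-response gene linked to active DNA demethylation, was the single companion gene that rose. It had 333 and 281 RPM in Reg4+ DCS cells and 69.4 and 70.0 RPM in Lgr5+ cells, 4.40-fold higher (2.12 ± 0.22, SE; limma, BH-adjusted p = 0.000514), and its adjusted p stayed at or below 0.016 without any 1 library. The summed level of 6 dissociation stress genes was 12278 and 15285 RPM in Reg4+ DCS cells and 9457 and 5503 RPM in Lgr5+ cells, with 3 of the 6 called higher, and its part in the Gadd45g value was not tested.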

How the data were processed

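The authors deposited 1 table of RPM for 14519 genes in 4 columns. BWA 0.6.2-r126 and mm10 stand in the submitters' processing notes; the sources used here do not give gene counting, annotation, strand or molecular identifiers. The table was decoded into whole reads (within 0.01 read) for 100% of Lgr5+ values and for 99.8% and 98.6% of Reg4+ DCS values, with the Reg4+ DCS columns read as means of 2 parts whose nature is not given.

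Genes with at least 5 RPM in at least 2 libraries were tested in R 4.3.3 with limma 3.58.1 (trend=TRUE) on log2(RPM + 1), group as the only term. Fold changes on that scale understate those of low genes. Folds are ratios of mean RPM. edgeR 4.0.16 and DESeq2 1.42.0 were run on the recovered reads as alternatives, with other scalings, filters, pseudocounts, single parts, a replicate block and each library left out. The fit was tested on simulated data. The members, companion lists and marker lists were chosen with earlier results of these data known. Named genes were each class's most abundant member and largest called change, members apart by a 4-fold mean ratio, listed paralog sets and each companion class's largest called change; others named here (such as Suz12, Cbx7, Cbx8, Ring1, Setd1a, Kdm1b, Hdac6, Sirt5 and Brd3) were added with their values known to complete a complex or family. The p-values rest on the spread between only 2 libraries a group, and limma draws each gene's variance toward a trend over all tested genes. Where libraries lie close, as for Dnmt3b, the SE comes largely from that trend. Coordinates are GENCODE M21 (GRCm38, the assembly of mm10), matched by symbol for 111 genes and by synonym for 4, and promoter windows are RefSeq's. Of the 45 genes that fell, 20 share exon positions with another annotated gene. Single-gene results for a few members are not reported here.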

Additional observations from a re-analysis of the deposited data

How the results depend on the processing

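Limma with a pseudocount of 0.1 or 5, no filter, a 20 RPM filter or no trend left 35 to 46 chromatin genes lower and 0 higher. Lower and higher chromatin genes numbered 15 and 5 after median-of-ratios scaling, 17 and 5 after TMM scaling, 18 and 3 by edgeR and 14 and 4 by DESeq2. Over all genes, lower and higher calls numbered 1297 and 1591, 1317 and 1549, 1362 and 1393, and 1268 and 1450 under the same 4 settings, and over the companions 31 and 9, 31 and 9, 31 and 5, and 30 and 5. By the second part of the Reg4+ DCS columns alone, chosen after the data were seen, 29 chromatin genes were lower. Leaving out 1 library gave 6 to 36 lower chromatin genes, 811 to 2250 lower and 261 to 419 higher genes in all, and 12 to 53 lower companions. The chromatin median minus that of all genes was −0.43 with the 20 RPM filter, −0.28 and −0.42 by the first and second part, and −0.39 to −0.27 with 1 library left out; no alternative turned its sign.

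The labels do not say that a replicate number marks a shared round; deviations of same-numbered libraries correlated at 0.212 across genes. With the replicate block 64 chromatin genes were lower (58.7%, against 34.7% of all genes), among them all 45 and Smarca4, 0 were higher (8.94% of all genes), and 78 companions were lower and 3 higher.

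The fold changes of 21, 19, 20 and 21 of the 109 chromatin genes turned sign by median-of-ratios, TMM, edgeR and DESeq2. That of Kdm6b was 0.13, 0.12, 0.17 and 0.19, and that of Sirt7 0.31, 0.30, 0.24 and 0.26 under these 4. That of Smarca4 was 0.046 by edgeR and 0.059 by DESeq2. With 1 library left out, that of Ezh1 lay between −0.24 and 0.38 and that of Sirt7 between −0.51 and 0.13. The cause was not tested.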
